A study of Mus musculus with 4 samples.

Results

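*Tnn*-positive cells (members) of the mouse femur were described among Cxcl12CE-tdTomato+ stromal cells sorted 7 days after bone marrow ablation. A called cell was a member when it held 2 or more unique molecular identifiers (UMIs) of *Tnn*, at most 1 UMI of *Wif1*, under 1% of its UMIs from *Prg4*, under 1% from *Bglap* and *Bglap2* together, and 0 UMIs of *Ptprc*. There were 470 members among 9795 called cells (4.80%), of which 451 (96.0%) came from a single library, ABL replicate 2. The members were thus chosen by their own counts of these genes, so the levels of the rule genes in them are given as a description, and no comparison of members with other cells of the same library was tested.

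*Tnn* encodes tenascin-W, a secreted glycoprotein of the tenascin family. Tenascins, periostin and thrombospondins are matricellular proteins: they sit in the extracellular matrix and modulate how cells attach to collagen and read growth factors, and many are prominent in developing skeleton, in tendon and in wounds. In the quiet marrow the stroma consists mainly of *Cxcl12*-expressing reticular cells around the sinusoids, which supply CXCL12, stem cell factor and other niche factors to blood stem cells. Mechanical removal of marrow is followed by formation of new bone inside the marrow cavity. *Tnn* lies on chromosome 1 of mm10 (chr1:160085029-160153580, minus strand) and is protein coding in the GENCODE annotation.

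All 4 libraries came from *Cxcl12*-creER; *R26R*-tdTomato mice, in which a bacterial artificial chromosome transgene drives tamoxifen-inducible Cre from *Cxcl12* regulatory sequences, and a cell that had active Cre keeps tdTomato for life. Tamoxifen was given 7 days before surgery, and tdTomato+ cells were sorted 7 days after it. CONT denotes the unoperated left femurs and ABL the right femurs, in which marrow was drilled out with endodontic files entered through the knee end. Replicate 1 was made with Chromium version 2 and pooled several mice, and replicate 2 was made with version 3, so replicate and chemistry cannot be told apart. The mice were of mixed background, and the labels give neither age nor sex. The sort marks descendants of *Cxcl12*-expressing cells and does not show the state of a cell before surgery. Among called cells, 2566 still held a UMI of *Ptprc*, the pan-leukocyte phosphatase CD45. Among non-member stromal cells, 147 held 1% or more of their UMIs from *Prg4*, the lubricin gene of joint lining.

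In replicate 1, all droplets together held 44784072 UMIs for CONT and 22889380 for ABL, and in replicate 2 they held 40486876 for CONT and 41536563 for ABL. Called cells numbered 3419, 1438, 2397 and 2541 in that order, with medians of 5720, 7447, 12906 and 12275 UMIs. Stromal cells were gated as called cells with 0 UMIs of *Ptprc*, *Cdh5* and *Pecam1* and at least 0.3% of UMIs from *Cxcl12*, *Col1a1*, *Col1a2*, *Col3a1* and *Col2a1*. Of the 470 members 464 lay inside the gate, and the 6 others, all of ABL replicate 2, were counted with it, which gave 1190, 609, 1941 and 1677 stromal cells.

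The libraries of a replicate did not match in *Xist*, the transcript of the inactive X chromosome, although both femurs are described as coming from the same mice. A *Xist* UMI was present in 49.3% of non-member stromal cells of CONT replicate 1 and in 80.7% of those of ABL replicate 1. In replicate 2 it was present in 71.5% of the CONT cells and in 0.0816% of the ABL cells. Among members it was present in 10 of 18 cells of ABL replicate 1 and in 0 of 451 cells of ABL replicate 2. The part of sex or of the individual mice in any difference between ABL and CONT replicate 2 was not tested. Over all pairs of libraries 6 called barcodes were shared, and 0 of them were members.

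Members were nearly absent from unoperated femurs and unequally frequent in the ablated ones. In replicate 1 they made up 0.0840% of gated stromal cells in CONT (1 cell) and 2.96% in ABL (18 members, 95% exact binomial interval 1.76 to 4.63%). In replicate 2 the CONT share was 0%, and the ABL share was 26.9% (451 members, 24.8 to 29.1%), counting the few members outside the gate. Members made up 0.0292% (CONT) and 1.25% (ABL) of all called cells in replicate 1, and 0% and 17.7% in replicate 2, where 0 of 2397 cells allows a share of up to 0.125% (taken as 3 counts) and the exact binomial interval ends at 0.154%. Both ABL libraries lay above both CONT libraries. The difference between ABL and CONT in the share of called cells was 1.22 percentage points in replicate 1 and 17.7 in replicate 2, with a mean of 9.49. The intervals cover counting error only, and with 2 libraries per condition a two-sided exact permutation test cannot give a p under 0.333. The binomial intervals of the 2 ABL libraries did not overlap, and chemistry, mice and surgery cannot be told apart in that gap.

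**Figure D1:**
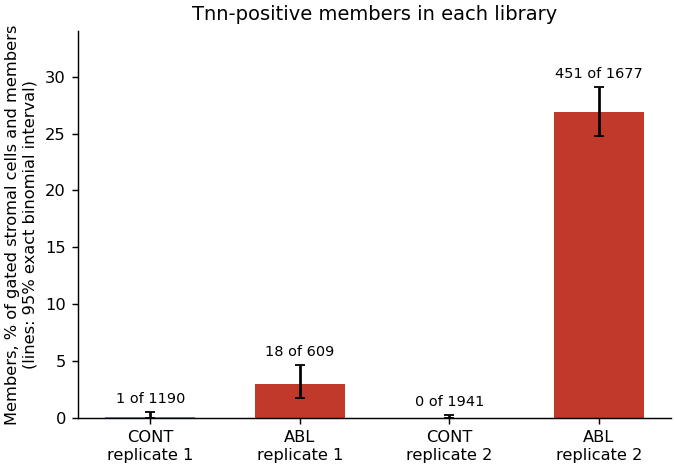
Share of *Tnn*-positive members among gated stromal cells in each library, in percent, with 95% exact binomial intervals as lines and the number of members over stromal cells above each bar, the 6 members outside the gate counted in both. The bars stand at 0.0840% and 0% in the CONT libraries, at 2.96% in ABL replicate 1 and at 26.9% in ABL replicate 2.

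Members were sequenced to more UMIs than their neighbours. Their median was 15635 UMIs in ABL replicate 1 and 16201 in ABL replicate 2, against 6981 and 11406 in the other stromal cells. Median genes per cell were 3608.5 and 3580 against 2510 and 2974, and median mitochondrial shares were 3.23% and 4.998% against 4.004% and 5.22%. Since a deep cell reaches 2 *Tnn* UMIs more readily, *Tnn* was also counted after thinning every cell to 4000 UMIs (2700 in replicate 1). The share of called cells was then 0.626% in ABL replicate 1 and 10.9% in ABL replicate 2, with 0 members in both CONT libraries. Scrublet marked 1.10% of called cells as doublets, and 0 of the members.

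The *tdTomato* transcript was present in nearly every member. A UMI was found in 18 of 18 members of ABL replicate 1 and 450 of 451 members of ABL replicate 2. After thinning to 2000 UMIs, *tdTomato* was found in 93.6% of members of ABL replicate 2, 84.3% of its other stromal cells and 44.4% of its hematopoietic cells (*Ptprc*-positive), the last of which serve as a background for free RNA in droplets. *Tnn* was found by the same count in 61.4% of members and 1.76% of hematopoietic cells, and without thinning in 4.05% of hematopoietic cells, whose median depth was 10866 UMIs. The *iCreER* transgene gave a UMI in 4.21% of the members of ABL replicate 2 without thinning, and in 7.34% of the other stromal cells.

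The rule drew lines through a continuum of counts. *Tnn* UMIs per member ran from 2 to 20 with a median of 7 in ABL replicate 1 and from 2 to 91 with a median of 8 in ABL replicate 2. In ABL replicate 2 the 63 members with exactly 2 *Tnn* UMIs had 1036 CPM (counts per 1000000 UMIs, summed over the cells of a population before division) of *Postn*, 1927 of *Aspn*, 1044 of *Ly6a* and 234 of *Cxcl12*. The 107 cells just outside, with 1 *Tnn* UMI, had 639, 1200, 1140 and 608 CPM of the same genes. Across the *Wif1* line, members with 1 *Wif1* UMI (72 cells) had 322 CPM of *Alpl*, the bone alkaline phosphatase, and 1118 of *Acan*, against 476 and 990 in the 38 cells with 2 *Wif1* UMIs and 101 and 716 in the 379 members with 0. *Tnn* was not confined to members: of 654 cells with 2 or more *Tnn* UMIs in ABL replicate 2, 180 were left out for *Wif1*, 4 for *Prg4*, 9 for osteocalcin and 16 for *Ptprc*, with some left out on more than 1 count.

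Of the 5 genes proposed as markers, *Aspn* and *Itgbl1* were higher in members of both ABL libraries, *Inhba* reached 2-fold in 1 of them, and *Dio2* reached it in none. In ABL replicate 2, *Tnn*, on which the rule rests, stood at 772 CPM in members and 156 in the other stromal cells. *Aspn* (asporin, a small leucine-rich proteoglycan of the collagen matrix; chr13:49544443-49567565, plus strand) stood at 1771 CPM in members and 675 in the other stromal cells of that library, and at 429 and 102 CPM in ABL replicate 1. *Itgbl1* (a secreted integrin beta-like protein; chr14:123659971-123975618, plus strand) stood at 175 and 71.7 CPM in ABL replicate 2 and at 48.7 and 7.75 CPM in ABL replicate 1. Both genes were more than 2-fold higher in members in both ABL libraries, with log2 ratios of 1.39 and 1.29 in ABL replicate 2.

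*Inhba* (the beta A subunit from which activin A is built; chr13:16011851-16031621, plus strand) was at 341 CPM in members of ABL replicate 1 and 14.5 in their neighbours, but at 155 and 97.1 CPM in ABL replicate 2, a log2 ratio of 0.68. In that library *Prg4*-high cells held more of it, 195 CPM. *Dio2* (the deiodinase that activates thyroid hormone inside cells; chr12:90724552-90738438, minus strand) was at 19.4 CPM in members and 23.9 in other stromal cells of ABL replicate 2, and at 0 and 9.99 CPM in ABL replicate 1, where 0 of 308002 UMIs allows up to 9.74 CPM (taken as 3 counts) and the 95% exact Poisson interval reaches 11.98 CPM, so that a difference was not detectable at this depth. Its highest levels were in the fibroblastic cells of unoperated femurs that were neither reticular nor in another named group, at 232 CPM in replicate 1 and 731 CPM in replicate 2. In these control cells *Aspn* (537 and 646 CPM) and *Itgbl1* (95.2 and 94.5 CPM) were also present, and *Inhba* stood at 7.44 and 7.87 CPM. They hold no *Tnn* by definition, since stromal cells with a UMI of it were put in other groups. Taken cell by cell in ABL replicate 2, 12 members held a UMI of none of *Itgbl1*, *Aspn*, *Inhba* and *Dio2*, 42 of 1, 207 of 2, 176 of 3 and 14 of all 4.

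**Figure D2:**
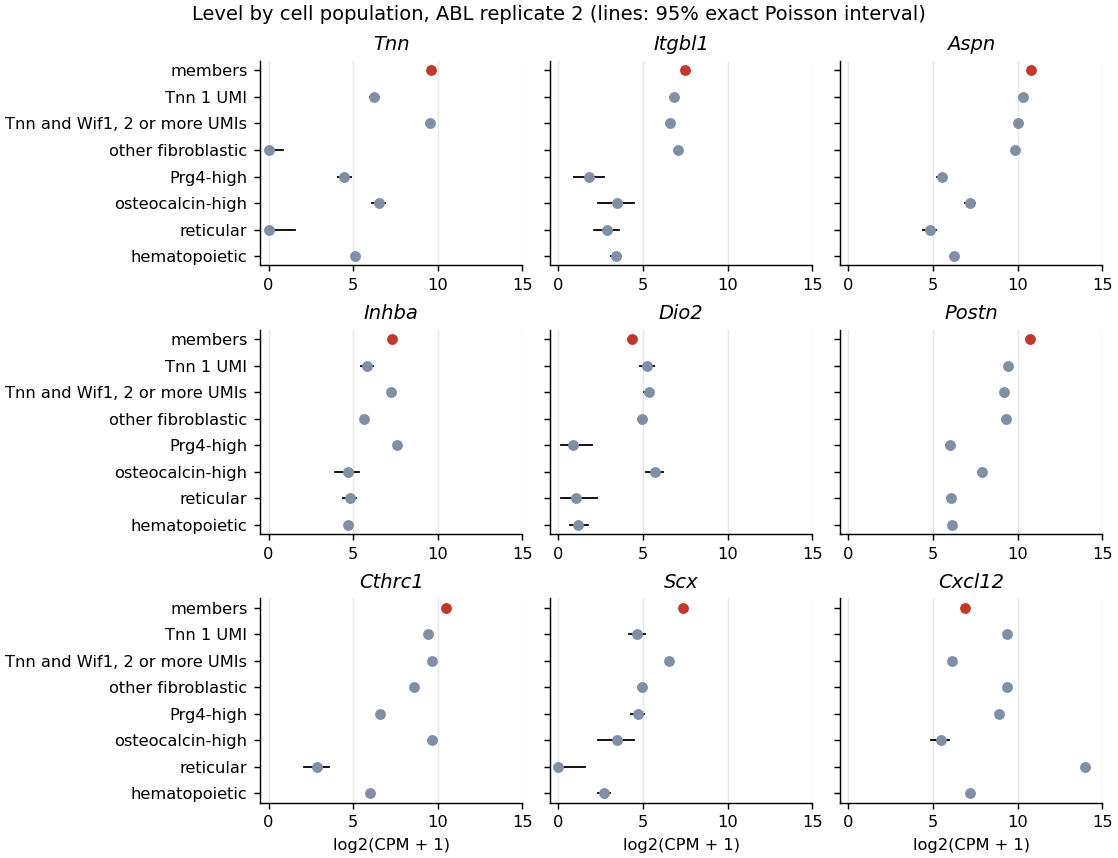
Levels of 9 genes in cell populations of ABL replicate 2, as log2(CPM + 1) of summed UMIs, with 95% exact Poisson intervals as lines and members in red. *Postn*, *Cthrc1*, *Scx* and *Aspn* stood highest in members among the populations drawn, and *Dio2* was low throughout. *Cxcl12* was highest in reticular cells, which were chosen by their *Cxcl12* and *Adipoq* UMIs.

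The rule left out 171 stromal cells of ABL replicate 2 with 2 or more UMIs of both *Tnn* and *Wif1*, a secreted inhibitor of Wnt ligands. These cells had 744 CPM of *Tnn* and members 772, both sets having been chosen by their *Tnn* UMIs. They stood at 555 CPM of *Alpl* against 136 in members, 3624 of *Ibsp* against 1164, and 1233 of *Acan* against 779. Members stood higher in *Postn* (1699 against 597 CPM), *Cthrc1* (1455 against 816), *Scx* (160 against 91.1) and *Ly6a* (650 against 330). These are levels of a single library, with no test.

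Against all other gated stromal cells of ABL replicate 2, 5683 genes had at least 20 CPM on either side. A gene was counted when it differed at least 2-fold and the 95% exact Poisson intervals of both sums did not overlap: 74 genes were higher in members (1.30% of those compared) and 310 lower (5.45%). In ABL replicate 1, which has 18 members, 6490 genes were compared, and 496 were higher (7.64%) and 790 lower (12.2%). Of the 74 genes higher in ABL replicate 2, 70 had a ratio in ABL replicate 1; 64 of these lay above 0 and 41 passed the same count there. Of the 310 lower genes, 309 had a ratio, of which 277 lay below 0 and 207 passed. Among all compared genes 47.5% lay above 0 in ABL replicate 1. The median log2 ratio of all compared genes was -0.01 in ABL replicate 2 and -0.05 in ABL replicate 1.

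Among the genes with the largest ratios in members were several that encode secreted matrix proteins. *C1qtnf3*, a secreted C1q/TNF-related protein, stood highest by ratio, at 568 CPM in members and 97.8 in the other stromal cells of ABL replicate 2, and at 97.4 and 12.8 CPM in ABL replicate 1. *Postn* (periostin, a matricellular protein of periosteum and healing tissue; chr3:54361109-54391037, plus strand) stood at 1699 and 404 CPM in ABL replicate 2 and at 1584 and 206 CPM in ABL replicate 1. *Cthrc1*, a secreted protein of repairing matrix on chromosome 15 (chr15:39076932-39087121, plus strand), stood at 1455 and 407 CPM, and at 597 and 123 CPM in ABL replicate 1. In each of these genes both ABL libraries showed the higher level in members.

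*Scx* (scleraxis, the transcription factor of tendon and ligament progenitors; chr15:76457452-76459458, plus strand) stood at 160 and 34.9 CPM in ABL replicate 2 and at 64.9 and 2.04 CPM in ABL replicate 1. *Lrrc15*, a membrane protein of matrix-producing fibroblasts, stood at 168 and 33.9 CPM, and at 42.2 and 2.65 CPM in ABL replicate 1. The rest of the 20 leading genes included *Crabp2*, a carrier of retinoic acid, *Thbs2*, *Fndc1*, *Angptl2*, the imprinted noncoding RNA *Meg3* (763 and 285 CPM), *Dkk3* and the mechanically gated channel *Piezo2*. Of the 20 genes, 14 passed the same count in ABL replicate 1. *Ctla2a* and *Fbn2* stood below their neighbours there, with log2 ratios of -1.05 and -0.24, and *Kera*, the cornea and tendon proteoglycan keratocan at 75.4 and 22.9 CPM in ABL replicate 2, was at 0 on both sides. In ABL replicate 2 only 57 members held a UMI of *Ctla2a*, and 5 of them held 68.8% of its UMIs.

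The 10 genes with the smallest ratios included several that reticular cells of the marrow express. *Adipoq*, the adipokine that marks adipocyte-primed reticular cells, stood at 1.64 CPM in members and 329 in the other stromal cells of ABL replicate 2, and at 61.7 and 1218 CPM in ABL replicate 1. *Hp* (haptoglobin) stood at 10.8 and 572 CPM, *Gdpd2* at 0.881 and 98.1 CPM, and *Esm1* at 1.01 and 86.5 CPM. *Kng1* rested on 2 UMIs in members and *Pla1a* on 3, so their ratios are imprecise. Of the 10 genes, 8 passed the count in ABL replicate 1, and *Pla1a* and *Clic5* did not. Against *Wif1*-positive cells only, the log2 ratio of *Clic5* was 1.20.

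**Figure D3:**
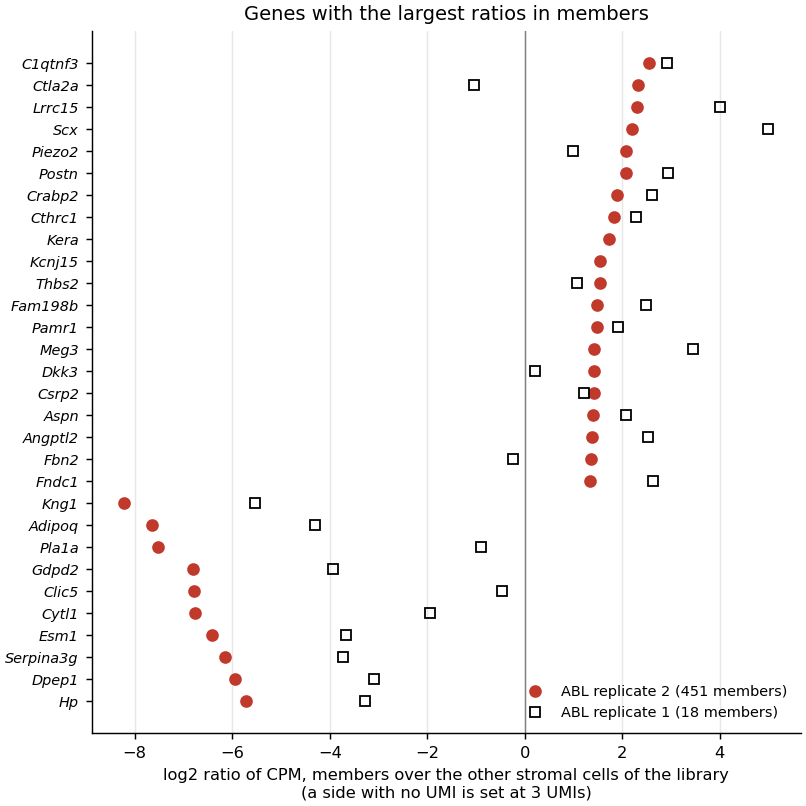
Log2 ratio of CPM in members over the other stromal cells of the same library for the 20 genes with the largest and the 10 with the smallest ratios in ABL replicate 2 (filled circles, 451 members), with ABL replicate 1 (open squares, 18 members) beside them. *Ctla2a* and *Fbn2* lie on the other side of 0 in ABL replicate 1, and a side without a UMI was set at 3 UMIs.

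Matricellular proteins, the family of tenascin-W, divided in both directions. Of 26 compared, 6 were higher in members and 6 lower, *Tnn* itself not counted as a result, with a median log2 ratio of 0.05. This and the later list counts stand beside 1.30% higher and 5.45% lower over all compared genes. Beside *Postn*, *Cthrc1*, *Thbs2* and *Itgbl1*, *Tgfbi* stood at 472 CPM in members and 189 in others, and *Thbs4*, a thrombospondin of tendon, at 400 and 167 CPM. Lower in members were *Spp1* (osteopontin, 893 and 3144 CPM), *Ctgf* (209 and 616 CPM), *Fbln5*, *Fbln1*, *Tnxb* and *Cilp2*. *Sparc*, the collagen-binding osteonectin, was the most abundant of the list, at 15589 CPM in members and about the same in the others.

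Most collagens and most enzymes that build them passed the count in neither direction. Of 20 fibrillar and fibril-associated collagens, 4 were higher and 2 lower, with a median log2 ratio of 0.62, and their summed level was 82879 CPM in members and 52729 in other stromal cells. *Col3a1*, the type III collagen of repair tissue, stood at 21111 and 9545 CPM, *Col12a1* at 1076 and 461, *Col5a1* at 1600 and 765, and *Col6a3* at 2372 and 1145 CPM. The basement membrane chains *Col4a1* (101 and 346 CPM) and *Col4a2* were the lower ones. *Col1a1*, the main chain of bone and tendon collagen, stood at 25741 and 19025 CPM, a log2 ratio of 0.44. All 4 higher collagens also passed the count in ABL replicate 1. Of 24 processing genes, with a median log2 ratio of 0.43, the collagen hydroxylases *P4ha2* and *P4ha3* and the crosslinking oxidase *Loxl2* (467 and 189 CPM) were higher, and *Pcolce2* was lower. Of these 3 higher genes 1 passed the count in ABL replicate 1. Of 11 small leucine-rich proteoglycans, *Aspn* and *Kera* were higher and *Chad* lower, while *Lum* (4459 and 2472 CPM) and *Fmod* (1521 and 768 CPM) stayed under 2-fold. In ABL replicate 1 *Aspn* passed the count and *Kera* did not.

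Genes of joint lining and tendon divided in both directions. Of 12 genes in this list, 5 were higher and 4 lower, among the higher *Scx*, *Tnmd* (tenomodulin, 56.4 and 25.6 CPM), *Thbs4* and *Kera*. Of the 5 higher genes 3 passed the count in ABL replicate 1. Only 46 members held a UMI of *Tnmd*, and 5 of them held 37.7% of its UMIs. *Cd55* (16.9 and 79.9 CPM) and *Sema3a* (3.27 and 47.1 CPM) were lower, as were *Chad* and *Cilp2*, while *Prg4* was held low by the rule. The rule also left the 145 *Prg4*-high cells among the others, and these held 238 CPM of *Cd55* and 264 of *Sema3a*, so the lower levels in members follow in part from the rule. Of 12 cartilage genes, *Acan* (aggrecan, the large proteoglycan of cartilage) was higher at 779 and 364 CPM, and *Matn4* and *Cytl1* were lower. In ABL replicate 1 *Acan* pointed the other way, at 29.2 CPM in members and 200 in others, and within ABL replicate 2 its log2 ratio was -0.39 against *Wif1*-positive cells only. The log2 ratio of *Cytl1* was 0.10 against reticular cells only. *Col2a1*, the collagen of cartilage, stood at 1559 and 1936 CPM in ABL replicate 2, and 5 cells held 81.2% of the members' UMIs of it.

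Several genes of bone formation were lower in members of ABL replicate 2. Of 14 compared in the osteoblast list apart from the rule genes, 0 were higher and 7 lower, with a median log2 ratio of -0.93, and 6 of the 7 also lay below 0 in ABL replicate 1. *Ibsp*, the bone sialoprotein gene, stood at 1164 and 2335 CPM in ABL replicate 2 and at 5360 and 2706 CPM in ABL replicate 1, opposite directions. The osteocyte genes *Dmp1* (0.755 and 43.3 CPM) and *Phex* (1.01 and 41.1 CPM) were close to absent. Of 7 osteogenic transcription factors 3 were lower and 0 higher, *Sp7* (osterix, 10.8 and 25.5 CPM) and *Dlx5* among the lower ones, and *Runx2*, the master factor of osteoblasts, stood at 40.2 and 69.2 CPM. The comparison cells include 2 populations that the rule kept out of the members. The 304 *Wif1*-positive cells held 558 CPM of *Alpl*, 4588 of *Ibsp* and 34.9 of *Sp7*, and the 44 osteocalcin-high cells held 724, 10525 and 141 CPM of the same genes. Against other fibroblastic cells only, *Ibsp* was higher in members, with a log2 ratio of 0.61.

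Niche genes of reticular cells were mostly lower in *Tnn*-positive cells. Of 16 genes, 14 were lower and 0 higher in ABL replicate 2, with a median log2 ratio of -2.62, and all 14 also lay below 0 in ABL replicate 1. Against *Wif1*-positive cells only, the log2 ratio of *Ebf1*, among the 14, was 0.45. *Cxcl12*, whose regulatory sequences drive the Cre that marked these cells, stood at 120 CPM in members and 2658 in the other stromal cells of ABL replicate 2, and at 373 and 9700 CPM in ABL replicate 1. *Lepr* stood at 2.77 and 111 CPM, *Kitl* (stem cell factor) at 8.56 and 220, and *Lpl* at 34.5 and 823 CPM. The list's summed level was 1351 CPM in members and 8293 in others. Members against reticular cells alone (243 cells) gave 699 genes higher and 1405 lower among 6501 compared.

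Over all compared genes 1.30% were higher and 5.45% lower. Of 29 genes of activin, BMP and TGF-beta signalling, 0 were higher in members, near the overall share, and 4 lower. The lower ones were all secreted or matrix-bound: *Bmp5* (11.7 and 33.8 CPM), and the antagonists *Fst* (follistatin, which binds activin; 7.43 and 91.7 CPM), *Grem1* (2.52 and 113 CPM) and *Chrdl1* (8.81 and 92.6 CPM). *Tgfb2* stood at 197 and 109 CPM, under 2-fold. Of 14 Wnt pathway genes, *Dkk3* was higher (203 and 75.9 CPM), and *Sfrp1*, *Sfrp4*, *Wnt4* and the Wnt amplifier *Rspo3* (3.65 and 54.1 CPM) were lower. *Dkk3* did not pass the count in ABL replicate 1, at 87.7 and 75.7 CPM, a log2 ratio of 0.21. *Sfrp4* turned to the higher side against *Wif1*-positive cells only, with a log2 ratio of 1.17. Of 5 genes of thyroid hormone handling, 0 passed in either direction.

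Of 5 osteoclast-regulating cytokines 4 were lower, among them *Tnfsf11* (RANKL, 38.2 and 85.8 CPM) and *Csf1* (29.1 and 130 CPM). The shares over all compared genes were 1.30% higher and 5.45% lower. *Il6* was lower in ABL replicate 2 (7.81 and 31.0 CPM) but stood at 64.9 and 19.4 CPM in ABL replicate 1. Of 7 chemokine genes, *Cxcl1*, *Cxcl2* and *Cxcl9* were lower, and both *Cxcl1* and *Cxcl2* pointed the other way in ABL replicate 1. Within ABL replicate 2 the log2 ratio of *Cxcl2* was 3.11 against reticular, 0.71 against other fibroblastic and 0.21 against *Wif1*-positive cells only. Against *Wif1*-positive cells only it was 0.70 for *Cxcl1* and 0.76 for *Il6*. Among 18 matrix-degrading enzymes and inhibitors, the metalloprotease *Adam12* was higher (90.8 and 45.0 CPM) and *Mmp9*, *Mmp11* and *Adamts1* lower. In ABL replicate 1 the ratio of *Adam12* lay above 0 but did not pass the count. *Mmp13*, the collagenase of cartilage and bone remodelling, stood at 1042 and 1008 CPM. Of 12 genes of IGF signalling and imprinted growth, *Meg3* was higher, and *Igf2*, *Igfbp3*, *Igfbp4* and *Igfbp5* were lower.

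Surface, fibroblast and contractile genes that passed the count were all lower in members. Among all compared genes 1.30% were higher and 5.45% lower. Of 15 periosteal and interstitial fibroblast genes 0 were higher and 2 lower (*Pi16* and *Sfrp4*). *Ly6a*, the stem cell antigen Sca-1, stood at 650 and 741 CPM, *Clec3b* at 677 and 487, and *Dpt* at 471 and 403 CPM. Of 11 skeletal stem cell surface genes, *Grem1* and *Cdh2* were lower, and *Pdgfra* (162 and 193 CPM), *Itgav* and *Cd44* stayed under 2-fold. Of 9 integrins, *Itga1*, *Itga6* and *Itga9* were lower and 0 higher. Of 11 contractile genes, the pericyte genes *Rgs5* (1.51 and 65.0 CPM) and *Notch3* were lower, while *Acta2* stood at 113 and 77.5 CPM.

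Of the marker lists of hematopoietic, endothelial, osteoclast, Schwann and muscle cells, the hematopoietic one had the highest summed level in members of both ABL libraries. Of the hematopoietic list 5 were compared and 4 were lower, and its summed level was 490 CPM in members of ABL replicate 2 against 2032 in the others. Its most abundant gene was *Hbb-bs* at 264 CPM. A single member held 91.5% of the members' 4178 hemoglobin UMIs. In ABL replicate 1 the list summed to 8942 CPM in members and 13608 in others. In ABL replicate 2 endothelial genes summed to 44.1 CPM in members and 30.7 in others, with *Plvap* the most abundant at 31.7 CPM. The gate took out every other cell with a UMI of *Cdh5* or *Pecam1* but no member, and members held 23 and 5 UMIs of these genes, so part of this gap is set by the gate. Osteoclast genes summed to 134 and 98.0 CPM, with *Acp5* at 123 CPM in members and *Dcstamp* and *Calcr* at 0. Schwann cell genes summed to 154 and 111 CPM, of which *Cryab* gave 152 CPM in members while *Sox10* and *Gfap* were at 0. The part of other cell types in the levels of members was not tested. Muscle genes summed to 4.15 CPM, with *Acta1*, *Myh4*, *Ckm*, *Pax7* and *Myod1* at 0. Of 20 dissociation-induced and immediate early genes 0 were higher and 2 lower (*Btg2* and *Zfp36*).

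Proliferation was compared with the same depth in every cell. Of 8 cycling genes compared, 0 passed in either direction. Cells with 2 or more UMIs over *Mki67*, *Top2a*, *Cdk1*, *Ube2c* and *Birc5* made up 12.4% of members and 5.95% of other stromal cells of ABL replicate 2 at full depth. After thinning to 4000 UMIs these shares were 5.99% (95% exact binomial interval 3.98 to 8.59%) and 3.59% (2.62 to 4.79%), and the intervals overlapped. In ABL replicate 1, thinned to 2700 UMIs, they were 2 of 18 members (11.1%) and 3.89% of other stromal cells. The hematopoietic cells of ABL replicate 2 stood at 24.5%.

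Within the 451 members of ABL replicate 2, periosteal and interstitial fibroblast genes stood lower where *Tnn* was higher, and matrix and tendon genes divided in both directions. Members were ordered by *Tnn* UMIs per 10000 UMIs, which ran from 0.654 to 36.8 with a median of 5.15, and divided into tertiles of 151, 150 and 150 cells. The upper and the lower tertile gave 5526 compared genes, of which 87 were higher in the upper (1.57%) and 238 lower (4.31%). By list, 0 of 14 periosteal and interstitial fibroblast genes were higher and 9 lower, 6 of 26 matricellular genes were higher and 4 lower, 2 of 11 joint and tendon genes were higher and 2 lower, and 1 of 12 cartilage genes was higher and 8 lower. Several of the lower cartilage genes rested on few cells, for 5 members held 81.2% of the *Col2a1*, 81.1% of the *Col9a2* and 85.6% of the *Matn3* UMIs. *Postn* stood at 965, 1257 and 2790 CPM from the lower to the upper tertile, *Scx* at 62.8, 130 and 279, and *Fmod* (fibromodulin, a tendon proteoglycan) at 729, 1349 and 2417 CPM. The imprinted RNA *H19* stood at 172, 243 and 743 CPM, and *Inhba* at 79.4, 140 and 240 CPM. Of the *Inhba* UMIs 27.0% lay in 5 members.

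The tendon and cartilage gene *Chad* stood at 275, 23.4 and 29.1 CPM, with 77.4% of its UMIs in 5 members, and the matricellular gene *Tnxb* at 99.4, 41.4 and 11.1 CPM. *Hbb-bs* stood at 768, 17.95 and 21.6 CPM, and 5 members held 92.9% of its UMIs. The opposite order to that of *Postn* was also found in *Ly6a* at 838, 777 and 359 CPM, *Clec3b* at 953, 829 and 280, and *Dpt* (dermatopontin) at 733, 520 and 182 CPM. *Igf1* stood at 1249, 1069 and 597 CPM and *Cxcl12* at 181, 117 and 64.3 CPM. The chemokine *Ccl2* stood at 292 CPM in the lower and 16.5 in the upper tertile, but only 50 members held a UMI of it and 5 of them held 70.4% of its UMIs. *Aspn* (1480, 1829 and 1987 CPM) and *Itgbl1* (157, 186 and 182 CPM) varied little over the tertiles. Median depths were 15164, 15307.5 and 17062.5 UMIs, and the genes drawn for this order were chosen after their values were seen.

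**Figure D4:**
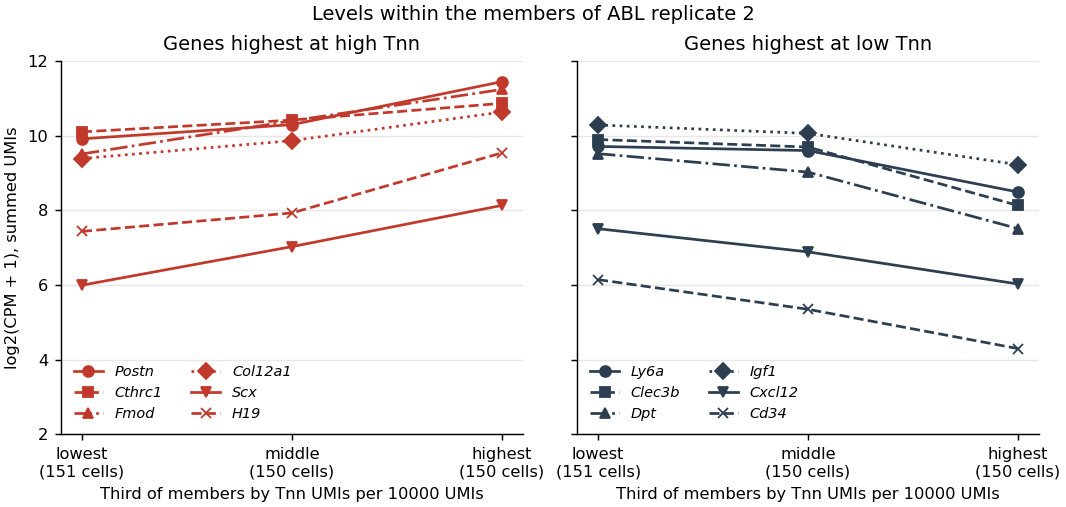
Levels, as log2(CPM + 1) of summed UMIs, in the lower (151 cells), middle (150 cells) and upper (150 cells) tertile of the members of ABL replicate 2 by *Tnn* UMIs per 10000 UMIs. The left panel shows 6 genes highest in the upper tertile, such as *Postn* from 965 to 2790 CPM, and the right panel 6 highest in the lower, such as *Ly6a* from 838 to 359 CPM.

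A second division used cartilage transcripts. In ABL replicate 2, 345 members held 2 or more UMIs of *Acan* and *Col2a1* together and 106 held fewer, with median depths of 16664 and 13890 UMIs. Among 5547 genes, 134 were higher in the former (2.42%) and 183 lower (3.30%). *Scx* stood at 189 CPM in the 345 and 42.9 in the 106, and *Fmod* at 1792 and 432 CPM. *Ly6a* stood at 529 and 1139 CPM, *Clec3b* at 545 and 1209, *Dpt* at 330 and 1038, and *Sfrp4* at 70.6 and 587 CPM. *Col9a1*, *Col9a3*, *Matn3* and *Hapln1*, which accompany type II collagen in cartilage, were among the higher genes. *Col9a1* was found in 40 members, of which 5 held 72.3% of its UMIs, and *Matn3* in 28, of which 5 held 85.6%, while *Hapln1* was found in 217. The 345 members are a range of *Acan* and *Col2a1* counts, not a type.

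The 45 members with a UMI of *Sp7* stood higher in several genes of bone formation and of cartilage. Against the 406 without one, 221 of 5655 genes were higher (3.91%) and 252 lower (4.46%). By list, 8 of 12 osteoblast genes were higher and 0 lower, and 10 of 13 cartilage genes were higher and 0 lower. Of these cartilage genes *Acan* was found in 380 of all members and *Hapln1* in 217, but *Col9a1* in 40. *Alpl* stood at 659 and 73.2 CPM, *Ibsp* at 5749 and 615, *Spp1* at 2788 and 667, and *Runx2* at 124 and 30.2 CPM. *Col2a1* stood at 9430 and 617 CPM and *Col10a1*, the collagen of hypertrophic cartilage, at 75.3 and 0.282 CPM. *Igf1* was at 150 and 1060 CPM and *Clec3b* at 107 and 745 CPM. Single cells weighed on these sums, for the 5 richest members held 37.4% of the *Ibsp* and 25.4% of the *Spp1* UMIs, but 7.12% of the *Tnn* and 13.1% of the *Postn* UMIs. They held 81.2% of the *Col2a1* UMIs, and *Col10a1* was found in 3 members only, so the levels of these 2 genes are those of a few cells.

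The 56 members with 2 or more cycling UMIs stood at 347 CPM of *Ly6a* against 711 in the 395 others, 221 of *Clec3b* against 768, and 315 of *Inhba* against 123. Over all 451 members, 5 cells held 27.0% of the *Inhba* UMIs. Among 5733 genes, 332 were higher in them (5.79%) and 227 lower (3.96%). Their median depth was 23649.5 UMIs against 15434. The member rich in hemoglobin was among them, since *Hbb-bs* stood at 1490 and 20.5 CPM.

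Whether ablated femurs differed from unoperated ones could be tested only over libraries. UMIs of all gated stromal cells, members included, were summed per library and compared by edgeR's quasi-likelihood test with the replicate as a block. The CPM of single genes given with this test are scaled by edgeR's TMM normalization. Of 13452 genes, 166 rose in ABL (1.23%) and 54 fell (0.401%) at an adjusted p (Benjamini-Hochberg) under 0.05. Without the replicate block 0 genes passed, with 670 higher and 467 lower at an unadjusted p under 0.05 and a lowest adjusted p of 0.535 by edgeR. The blocked fit has 1 residual degree of freedom. In such sums, more cells of a type and more RNA per cell cannot be told apart, and ABL replicate 2 differs from the other libraries in its large share of members. Hemoglobin UMIs in non-member stromal cells, which in replicate 1 stood at 38451 CPM (CONT) and 6318 CPM (ABL), and in replicate 2 at 1852 and 2347 CPM, also moved with condition in replicate 1, and their part in these results was not tested.

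Several genes that stood higher in members rose in ABL stromal cells as a whole. They were chosen by their ratios in members of ABL replicate 2, and the UMIs of these members enter the sums. Their adjusted p-values are therefore a description. In replicate 1 *Postn* stood at 29.5 CPM in CONT and 265 in ABL, and in replicate 2 at 11.1 and 890 CPM, with both ABL libraries above both CONT libraries (log2 fold change 4.75, SE 0.89, edgeR adjusted p = 0.0271). *Cthrc1* stood at 5.91, 139, 2.34 and 805 CPM in the same order, again without overlap (6.52, SE 1.02, edgeR adjusted p = 0.0161). *Scx* stood at 0.311, 5.30, 0.516 and 81.7 CPM (6.64, SE 0.77, edgeR adjusted p = 0.0043). In *Scx* the CONT libraries were near 0 and the ABL libraries differed from each other by more than 10-fold.

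Of the proposed markers other than the rule gene *Tnn*, only *Inhba* passed. *Inhba* stood at 3.89, 31.1, 8.81 and 123 CPM (3.44, SE 0.47, edgeR adjusted p = 0.0105), with both ABL libraries above both CONT libraries. *Tnn*, the gene of the rule, stood at 0.311, 27.6, 0.119 and 385 CPM, given as a description. *Aspn* stood at 58.1, 112, 30.7 and 1106 CPM and did not pass (3.07, edgeR adjusted p = 0.180). *Itgbl1* stood at 11.7, 9.36, 4.68 and 113 CPM (2.23, edgeR adjusted p = 0.356), and in replicate 1 the ABL library was the lower one. *Dio2* stood at 25.6, 8.66, 40.2 and 23.7 CPM (-1.14, edgeR adjusted p = 0.216), with the ABL library lower in each replicate.

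By list, *Postn*, *Thbs4*, *Wisp1* and *Cthrc1* rose among 27 matricellular genes and 0 fell. The 27 include the rule gene *Tnn*, which was also higher but is not counted as a result. Of 21 collagens *Col8a2* and *Col24a1* rose. Of 13 joint and tendon genes 5 rose, among them *Prg4* (7.34, SE 1.45, edgeR adjusted p = 0.0337) and *Tnmd*. Of 16 osteoblast genes 4 rose, among them *Dmp1* and *Ifitm5*, which are low in members. Of 18 reticular niche genes 0 passed by edgeR, with 10 lower at an unadjusted p under 0.05, and *Cxcl12* stood at 14875, 8425, 17470 and 1905 CPM. Of 8 osteoclast-regulating cytokines *Tnfrsf11b* and *Il11* rose and *Il34* and *Il6* fell. The smooth muscle actin gene *Acta2* rose from 3.26 and 0.0794 CPM in CONT to 62.5 and 94.6 CPM in ABL (6.51, SE 1.07, edgeR adjusted p = 0.0176).

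The genes that stood apart in members were then read in this test, as a description only, since they were chosen from sums of ABL replicate 2 that also enter it, and members lie almost wholly in ABL libraries. Of the 74 genes higher in members 70 were tested, and 18 rose (25.7%) and 0 fell, against 1.57% of all compared genes that rose. Of the 310 lower in members 309 were tested, and 18 rose (5.83%) and 5 fell (1.62%), against 1.57% and 0.0882% of all compared genes. Members contribute to these sums: in ABL replicate 2 they held 33.8% of stromal UMIs, but 74.8% of those of *C1qtnf3*, 70.1% of *Scx*, 68.2% of *Postn* and 64.6% of *Cthrc1*, and 0.253% of *Adipoq*. The test was therefore repeated with members left out of every library.

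With members left out, 418 genes rose and 224 fell among 13060. *Postn* then stood at 29.7, 190, 11.1 and 424 CPM (3.97, edgeR adjusted p = 0.000239), so that the remaining ABL cells were above CONT in both replicates. *Cthrc1* stood at 5.95, 114, 2.34 and 427 CPM (5.91, edgeR adjusted p = 1.11e-05). *Inhba* stood at 3.91, 13.4, 8.82 and 102 CPM (2.75, edgeR adjusted p = 0.000583), and *Scx* at 0.313, 1.89, 0.516 and 36.6 CPM (5.43, edgeR adjusted p = 5.3e-05). *Aspn* passed in this fit (2.62, edgeR adjusted p = 0.0395), and *Itgbl1* and *Dio2* again did not. The rule took 451 members out of ABL replicate 2 and 18 out of ABL replicate 1, which itself changes the spread between the ABL libraries. The adjusted p-values of this fit are therefore a description, and the part of the rule in them was not tested. Of the 70 tested genes that were higher in members, 37 rose (52.9%) and 0 fell, against 4.17% of all compared genes that rose. Of the 307 tested genes that were lower in members, 37 rose (12.1%) and 21 fell (6.84%), against 4.17% and 0.529% of all compared genes. These shares, too, are a description, since the genes were chosen from the same library. The remaining cells of ABL replicate 2 still held 164 CPM of *Tnn*, since they include *Wif1*-positive cells with *Tnn*.

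**Figure D5:**
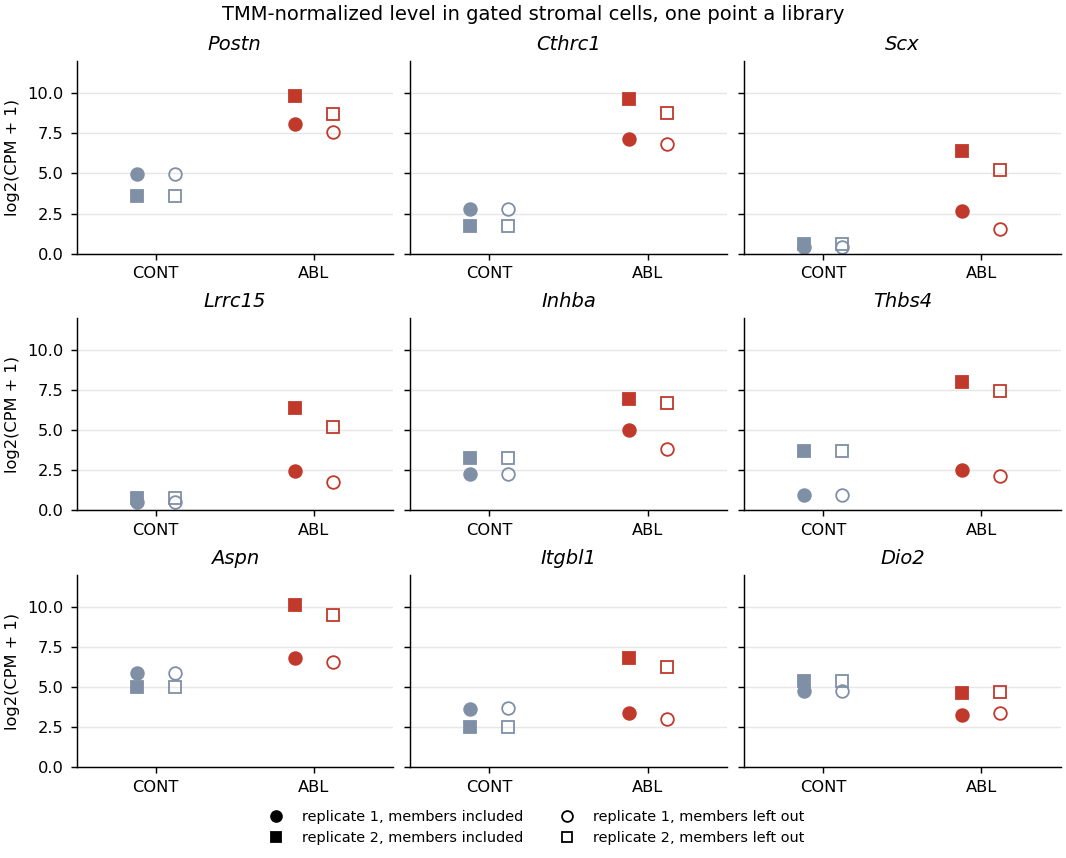
TMM-normalized levels of 9 genes in all gated stromal cells, as log2(CPM + 1) with 1 point per library, with members included (filled) and left out (open), for CONT (grey) and ABL (red). *Postn*, *Cthrc1*, *Scx*, *Lrrc15* and *Inhba* lie above CONT in both ABL libraries in either case, *Thbs4* does so within each replicate, and *Itgbl1* and *Dio2* did not pass the test.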

How the data were processed

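Single-cell RNA-seq counts of Cxcl12CE-tdTomato+ cells were taken as the authors deposited them: raw UMI counts per feature (28006 features, mm10 genes with added reporter and recombinase sequences) for all barcodes, with no cell calling, filter or normalization. The submitters' processing notes name Cell Ranger, Seurat and mm10, with no version. The kits count molecules by their 3′ end, so levels do not scale with gene length.

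Called cells had at least 500 genes, at most 20% mitochondrial UMIs and at least 2700 UMIs (replicate 1), or 1000 genes, 15% and 4000 UMIs (replicate 2), which adds a UMI minimum to the study's filter. The study's filter alone left 4809 and 1768 cells in replicate 1 and 2478 and 2720 in replicate 2. Doublets were called by Scrublet (scanpy 1.11.5) and kept. Droplets of at most 300 UMIs gave the profile of free RNA, which made up 0.559% of member and 1.33% of other stromal UMIs by the levels of *S100a8* and *S100a9*. Stromal cells that were not members were divided in order into *Prg4*-high (1% or more), osteocalcin-high (1% or more), *Wif1*-positive (2 or more UMIs), 1 *Tnn* UMI, reticular (*Cxcl12* at 0.5% or more with an *Adipoq* UMI) and other fibroblastic cells.

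The members and the 29 gene lists (425 genes, all found) were chosen with earlier results of these data known. Named genes were the proposed markers and rule genes, the 20 higher genes of largest ratio at 50 CPM or more in members, the 10 lower genes of smallest ratio at 50 CPM or more in the others, and up to 6 genes of highest CPM per list. Other genes, and all genes named in the divisions of members, were chosen after their values were seen. A gene with no UMI on 1 side was set at 3 UMIs for its ratio.

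ABL and CONT were compared by edgeR 4.0.16 (R 4.3.3; TMM, filterByExpr, quasi-likelihood F test, replicate as block), after a check on simulated data. The replicate number marks the shared chemistry, and the deviations of CONT and ABL from their group means correlated within replicates (r = 0.475 over 13452 genes). Nothing ties single mice to libraries, so p-values measure only the spread between these libraries. Alternatives included DESeq2 1.42.0. Python 3.11.15, numpy 2.4.6, scipy 1.17.1, pandas 2.3.3 and matplotlib 3.10.9 were used. Some genes of the lists are not reported here by name. Gene coordinates are from GENCODE M21 on GRCm38 (mm10).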

Additional observations from a re-analysis of the deposited data

How the results depend on the processing

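The difference in the share of members between ABL and CONT stayed above 0 under every alternative and in each replicate (1.22 percentage points without replicate 2 and 17.7 without replicate 1), and fell between 5.74 and 11.99 points under other cell filters and *Tnn* thresholds. Counts of genes apart in members depended on the thresholds: 12 higher and 170 lower at 3-fold, 132 and 670 at a 5 CPM minimum, 42 and 88 at 100 CPM, 699 and 1405 against reticular cells only, 496 and 790 in ABL replicate 1, and 195 lower against *Wif1*-positive cells only. Members with 3 or more *Tnn* UMIs, free RNA subtracted, doublets or cycling cells left out, other fibroblastic cells as the comparison, and, chosen after seeing the data, *tdTomato*-holding cells, thinned cells or cells without hemoglobin kept both counts within 1.5 times. The cause of each change below was not tested.

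Of 168 genes and 1841 alternative values of the ratio in members, 1096 moved by less than their counting interval. Among genes counted as higher or lower in ABL replicate 2, 18 values changed sign. Sign changes of the other genes were not counted. In ABL replicate 1 the log2 ratio became -1.05 for *Ctla2a*, -0.24 for *Fbn2*, -2.78 for *Acan*, 0.54 for *Cxcl1*, 2.50 for *Cxcl2*, 0.99 for *Ibsp* and 1.75 for *Il6*. Against *Wif1*-positive cells only, a comparison chosen after seeing the data, it was 1.20 for *Clic5*, 1.17 for *Sfrp4*, -0.39 for *Acan*, 0.70 for *Cxcl1*, 0.21 for *Cxcl2*, 0.76 for *Il6* and 0.45 for *Ebf1*. Against reticular cells only it was 0.10 for *Cytl1* and 3.11 for *Cxcl2*, and against other fibroblastic cells only 0.71 for *Cxcl2* and 0.61 for *Ibsp*.

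In ABL against CONT, the fit with no replicate block gave 0 genes higher and 0 lower. With the block, DESeq2 gave 349 and 215, edgeR with no TMM 649 and 349, with DESeq2 size factors 116 and 28, with no filter beyond 1 UMI 564 and 285, without the members 418 and 224, and with the gate at 1% of UMIs 385 and 191. Of the 44 named genes called, all 44 kept their direction in every fit, 42 were called by DESeq2 and 33 with its size factors, and 0 with no block. Without replicate 2, and without replicate 1 in turn, the log2 fold change was -0.29 and 4.32 for *Itgbl1*, -0.012 and 4.05 for *Ctla2a*, -0.67 and 3.71 for *Pamr1*, -0.039 and 0.99 for *Dkk3*, and -2.00 and 0.90 for *Pla1a*, values with no test.

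Members rest almost wholly on ABL replicate 2, and the 18 members of ABL replicate 1 held 308002 UMIs in all, so a gene at 9.74 CPM there is at the limit that 0 counts allow.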
